A study of Mus musculus with 13 samples.

Results

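The genes described are those of the major histocompatibility complex (MHC) class II antigen presentation machinery together with Cd74: H2-Aa, H2-Ab1, H2-Eb1, H2-DMa, H2-DMb1, Cd74 and Ciita. They were found by exact name among the 20971 genes of the deposited expression table, and 7 of 7 were present. MHC class II molecules are pairs of an alpha and a beta chain that show peptides from ingested proteins to CD4+ T cells. Cd74, the invariant chain, holds new class II pairs together and fills their peptide groove until proteases in endosomes cut it away. H2-DM, a pair made of H2-DMa and a beta chain, then exchanges the last piece of the invariant chain for peptide, and H2-DO, made of H2-Oa and H2-Ob, restrains H2-DM. Ciita is the transactivator on which class II transcription depends. In healthy cortex few cells express class II, chiefly macrophages at vessels and borders, and microglia can switch it on around amyloid plaques.

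Messenger RNA levels were measured by RNA sequencing of cortex from 13 C57BL/6 mice aged 6 months, in groups of 6 APPPS1 mice and 7 APPPS1;Apoe-/- mice. APPPS1 mice, which both groups are by label, express mutant human amyloid precursor protein and presenilin under a neuronal Thy1 promoter and deposit amyloid in the cortex; the Apoe-/- mice lack apolipoprotein E, a lipid carrier, in every cell. The series' design counts the libraries as separate mice, and the replicate numbers used below are only names. Values are RPKM, reads scaled by gene length and by the mapped reads of the library, so levels may be compared between genes as well as libraries.

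Apoe read 463 to 670 RPKM in the APPPS1 libraries and 4.01 to 6.35 RPKM in the APPPS1;Apoe-/- libraries, so all 13 matched their label. Alignments numbered 28402328 to 77005806 per APPPS1 library and 18455493 to 34538031 per APPPS1;Apoe-/- library. Replicates 2 and 5 of the APPPS1;Apoe-/- group stood apart: App was 106 and 116 RPKM there and 176 to 217 RPKM in the other 11 libraries, and Cst7, a gene of plaque-associated microglia, was 0.490 and 0.518 RPKM against 10.5 to 65.6 RPKM. Thy1, the gene whose promoter drives the transgenes, was 52.2 and 56.9 RPKM in these 2 libraries against 172 to 245 RPKM in the other 11. Whether the mice of replicates 2 and 5 carried the transgenes was not tested. Some results for class II genes are also given without these libraries, while the marker and pathway lists include them. Replicate 4 of the same group stood apart in the class II genes themselves.

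Transcription of class II genes is known to run through a shared promoter module, in which an X box bound by the RFX complex and a Y box, an inverted CCAAT bound by NF-Y, together recruit Ciita. RefSeq promoters, 250 bases before to 50 bases after the start on GRCm38.p6, matched 4 of the 7 members (H2-Aa, H2-Eb1, H2-DMa and H2-DMb1). The stretches of H2-Aa, H2-Eb1 and, for comparison, the H2-DO gene H2-Ob are shown because they let the module be seen in genes of both kinds described below, the classical chains and H2-DO. Each is written 5′ to 3′ on the gene's own strand, with GNAAC, a core of the X box, and ATTGG, the core of the Y box, in capitals. H2-Aa lies at chr17:34287852-34287919 (minus strand), H2-Eb1 at chr17:34305761-34305827 (plus strand) and H2-Ob at chr17:34238803-34238867 (plus strand).
H2-Aa: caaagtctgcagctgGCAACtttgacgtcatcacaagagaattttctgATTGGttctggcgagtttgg
H2-Eb1: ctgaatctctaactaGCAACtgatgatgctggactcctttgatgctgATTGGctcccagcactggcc
H2-Ob: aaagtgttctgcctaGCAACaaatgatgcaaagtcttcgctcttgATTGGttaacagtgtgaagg

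The cores started 33 bases apart in H2-Aa, 32 in H2-Eb1 and 30 in H2-Ob. H2-DMb1 and H2-Oa held the pair at a distance of 33, with GNAAC 94 and 76 bases before the RefSeq start. In the genes named here the pair was searched on the gene's own strand only. Over all promoters each motif, and the pair, was searched on either strand, a wider rule. The letters of the motifs and the spacing of 30 to 33 bases were chosen after the sequences had been read. By themselves GNAAC was in 84.8% and ATTGG in 37.4% of the 32544 distinct promoters, and both at this spacing on one strand were in 234 of them (0.719%). Neither H2-DMa window nor that of H2-DMb2 held the pair on the gene's own strand. A match describes letters, not a bound site.

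Cd74 was the most abundant member. On mm10 its gene spans positions 60803848 to 60812652 of chromosome 18 (plus strand). Replicates 1 to 6 of the APPPS1 group read 25.9, 24.6, 29.3, 26.6, 21.6 and 30.3 RPKM. Replicates 1 to 7 of the APPPS1;Apoe-/- group read 31.7, 17.5, 13.3, 83.3, 18.8, 19.8 and 24.5 RPKM. Without Apoe the values spread below and above those of the controls, and replicate 4 was far above all others. Means were 26.4 ± 3.18 RPKM (SD, n = 6) and 29.8 ± 24.3 RPKM (SD, n = 7). The change of log2(RPKM + 0.5), APPPS1;Apoe-/- minus APPPS1 as throughout, was -0.08 ± 0.30 (SE; limma, Benjamini-Hochberg adjusted p over all genes = 0.896), with a 95% confidence interval from -0.71 to 0.55. Without replicate 4 the APPPS1;Apoe-/- mean was 20.9 ± 6.42 RPKM (SD, n = 6) and the change -0.37, which did not pass either (limma adjusted p = 0.133; two-sided exact permutation p = 0.0671). This scale understates the change of weakly expressed genes, and in bulk tissue fewer cells of a type and less RNA per cell cannot be told apart.

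H2-Aa, the alpha chain of the I-A molecule, lies at positions 34282744 to 34287823 of chromosome 17, minus strand. Its APPPS1 libraries read 3.27, 3.19, 3.07, 2.62, 2.70 and 4.24 RPKM. Its APPPS1;Apoe-/- libraries read 5.45, 3.80, 2.85, 21.2, 3.62, 5.04 and 5.19 RPKM. Of these 7, the libraries of replicates 1, 4, 6 and 7 were above every APPPS1 library, and the groups overlapped. Means were 3.18 ± 0.582 RPKM (SD, n = 6) and 6.74 ± 6.46 RPKM (SD, n = 7). The log2 change of 0.69 ± 0.31 (SE) did not pass adjustment over all genes (limma adjusted p = 0.180), although the two-sided exact permutation p for H2-Aa alone was 0.0367, with no adjustment. Leaving out replicate 4 lowered the change to 0.37 (limma adjusted p = 0.0914; exact permutation p = 0.0476), and leaving out the 2 low-App libraries raised it to 0.88 (limma adjusted p = 0.148; exact permutation p = 0.0173).

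H2-Ab1, the beta chain of I-A (positions 34257689 to 34269419 of chromosome 17, plus strand), read 3.36, 2.89, 2.72, 2.66, 2.11 and 3.11 RPKM in the APPPS1 libraries. In APPPS1;Apoe-/- libraries it read 3.57, 2.27, 1.53, 12.99, 2.63, 1.69 and 3.19 RPKM. The groups overlapped, replicate 4 was again the highest, and replicates 3 and 6 were below every APPPS1 library. The log2 change was 0.13 ± 0.32 (SE; limma adjusted p = 0.841) with all libraries and -0.18 (limma adjusted p = 0.465) without replicate 4, so that its sign rested on that library.

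H2-Eb1, the beta chain of I-E (positions 34305867 to 34316674 of chromosome 17, plus strand), has no partner on the cell surface in C57BL/6 mice, whose alpha chain gene of I-E is defective. The APPPS1 libraries read 1.18, 1.90, 1.31, 1.54, 0.939 and 1.94 RPKM for it. The APPPS1;Apoe-/- libraries read 2.76, 2.17, 0.936, 7.77, 2.19, 1.75 and 2.21 RPKM. Replicates 1, 2, 4, 5 and 7 were above every APPPS1 library and replicate 3 was below, so the groups overlapped. The log2 change was 0.58 ± 0.28 (SE; limma adjusted p = 0.210; exact permutation p = 0.0880), and 0.33 without replicate 4 (limma adjusted p = 0.237).

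**Figure D1:**
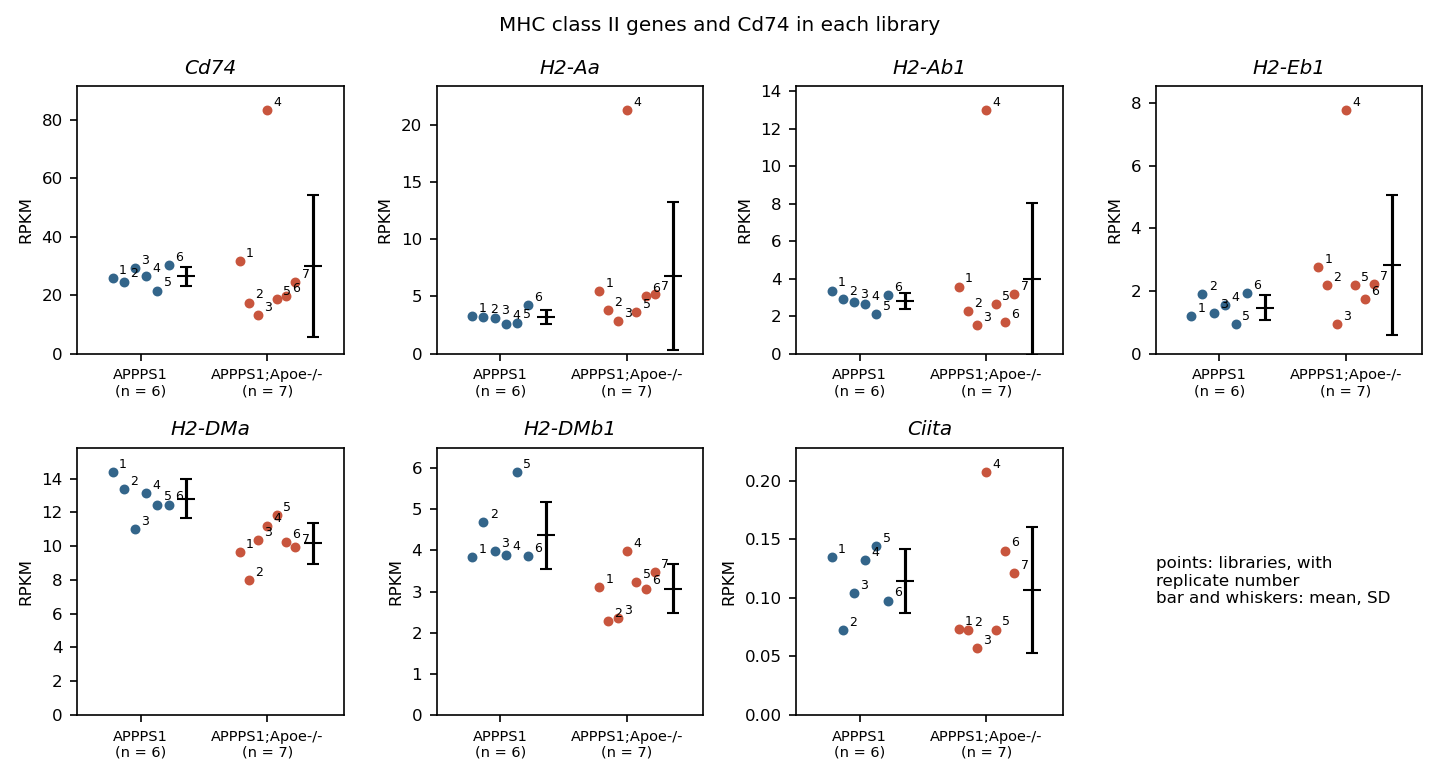
Level of each member in RPKM (linear axes from 0) in every library, with its replicate number, beside the mean and SD of each group (6 APPPS1 in blue, 7 APPPS1;Apoe-/- in red). Replicate 4 of the APPPS1;Apoe-/- group is the highest point for Cd74 (83.3 RPKM), H2-Aa (21.2), H2-Ab1 (12.99), H2-Eb1 (7.77) and Ciita (0.208). For H2-DMa and H2-DMb1 it lies among the other libraries, though it is the highest of its own group for H2-DMb1.

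The peptide loading genes fell. H2-DMa (positions 34119541 to 34139101 of chromosome 17, plus strand) read 14.4, 13.4, 11.0, 13.2, 12.5 and 12.5 RPKM in APPPS1 libraries. It read 9.66, 7.99, 10.3, 11.2, 11.8, 10.3 and 9.97 RPKM in APPPS1;Apoe-/- libraries. Only APPPS1 replicate 3, with 11.0 RPKM, lay within the range of the other group. Means were 12.8 ± 1.14 RPKM (SD, n = 6) and 10.2 ± 1.22 RPKM (SD, n = 7), a log2 change of -0.32 ± 0.08 (SE; limma adjusted p = 0.0194; exact permutation p = 0.00291). It was lower at an adjusted p under 0.05 with any 1 library left out (limma adjusted p between 0.0116 and 0.0481).

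H2-DMb1, a beta chain of H2-DM (positions 34153072 to 34160230 of chromosome 17, plus strand), read 3.84, 4.69, 3.99, 3.90, 5.91 and 3.85 RPKM in APPPS1 libraries and 3.10, 2.28, 2.37, 3.99, 3.24, 3.08 and 3.47 RPKM in APPPS1;Apoe-/- libraries. Replicate 4, at 3.99 RPKM, was the only APPPS1;Apoe-/- library within the range of the controls. Means were 4.37 ± 0.823 RPKM (SD, n = 6) and 3.07 ± 0.600 RPKM (SD, n = 7), a log2 change of -0.45 ± 0.12 (SE; limma adjusted p = 0.0276; exact permutation p = 0.00408). This call was less firm: it was lost without the 2 low-App libraries (limma adjusted p = 0.0771), and without APPPS1 replicate 2 or 5 or APPPS1;Apoe-/- replicate 2 or 3 (limma adjusted p = 0.0620, 0.0547, 0.0522 and 0.0508). Reads can also be shared with H2-DMb2, the other H2-DM beta chain gene: 22.7% of the 50-base stretches of H2-DMb1 transcripts in GENCODE occurred in H2-DMb2. Of those of H2-DMa, 8.43% occurred in its neighbour Brd2, and none of Cd74, H2-Ab1 or H2-Eb1 occurred in another gene.

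Ciita (positions 10480059 to 10528418 of chromosome 16, plus strand) was barely detected and fell under the filter of a mean of 0.5 RPKM, so that 6 of the 7 members were tested. It read 0.0725 to 0.144 RPKM in APPPS1 libraries (median 0.118) and 0.0572 to 0.208 RPKM in APPPS1;Apoe-/- libraries (median 0.0735). Replicate 4 was the highest of all 13. The groups overlapped (exact permutation p = 0.712), and at so low a level a difference would have been hard to detect.

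Of the 6 tested members, 2 were called lower (H2-DMa and H2-DMb1) and 0 higher. Over all 13343 genes tested, 4.74% were called lower and 3.48% higher; with RPKM rescaled by median-of-ratios factors or by quantiles, the split of 633 lower and 465 higher calls became 601 and 600, or 608 and 687, with the same members called. The median change over the 6 members was 0.03 and over all genes tested -0.01. The number of alignments differed between the groups, and with its log2 added to the fit as a covariate neither gene passed (H2-DMa -0.41, limma adjusted p = 0.0529; H2-DMb1 -0.54, limma adjusted p = 0.0819). With that covariate and without replicate 4, both did (H2-DMa -0.46, limma adjusted p = 0.0282; H2-DMb1 -0.65, limma adjusted p = 0.0277).

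**Figure D2:**
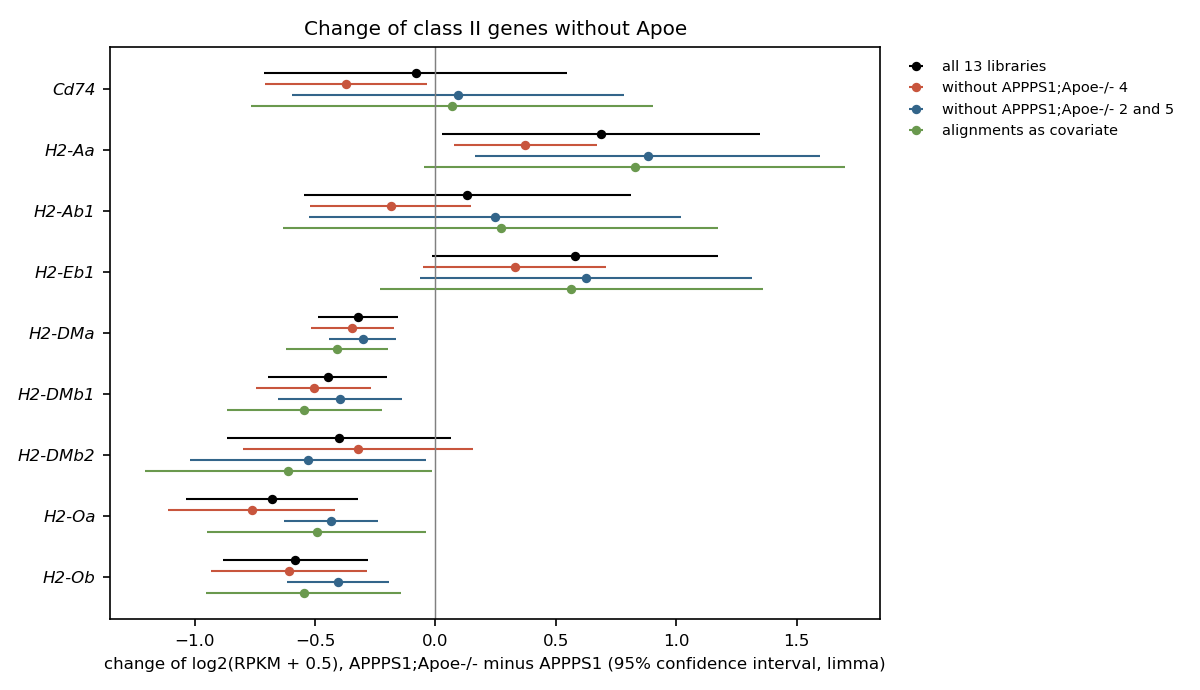
Change of log2(RPKM + 0.5), APPPS1;Apoe-/- minus APPPS1, with 95% confidence intervals from limma, for the 6 tested members and 3 further class II genes, with all 13 libraries, without replicate 4, without replicates 2 and 5, and with the alignments as a covariate. H2-DMa and H2-DMb1 lie below 0 in all 4 fits, while Cd74 and H2-Ab1 lie on either side of it.

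Both H2-DO genes fell as well. H2-Oa read between 2.41 and 2.86 RPKM (median 2.72) in APPPS1 libraries and between 0.613 and 2.33 RPKM (median 1.59) in APPPS1;Apoe-/- libraries, with no overlap, which 2.17% of all genes tested showed in this direction and none of the 6 tested members did. Its log2 change was -0.68 ± 0.17 (SE; limma adjusted p = 0.0215). Of the 50-base stretches of H2-Oa transcripts, 15.5% also occurred in the overlapping long noncoding RNA BC051537, so reads can be shared. H2-Ob read between 0.980 and 1.59 RPKM (median 1.35) and between 0.246 and 0.990 RPKM (median 0.785), a log2 change of -0.58 ± 0.14 (SE; limma adjusted p = 0.0198). Both were lowest in APPPS1;Apoe-/- replicate 5 (0.613 and 0.246 RPKM), and without replicates 2 and 5 the changes were -0.43 and -0.40 (limma adjusted p = 0.0138 and 0.0289). With the alignments as a covariate neither passed (limma adjusted p = 0.239 and 0.147). H2-DMb2 read 1.05 ± 0.511 RPKM (SD, n = 6) and 0.664 ± 0.346 RPKM (SD, n = 7) and did not pass (limma adjusted p = 0.273). H2-Eb2 was listed at 0 in 12 of 13 libraries.

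Replicate 4 of the APPPS1;Apoe-/- group carried the highest class II values in the series. Against the APPPS1 mean it held 3.16 times as much Cd74, 6.67 times H2-Aa, 4.63 times H2-Ab1 and 5.29 times H2-Eb1, but 0.873 times H2-DMa and 0.914 times H2-DMb1. Genes were ranked by how far this library's log2 value lay above the highest of the other 12 libraries of both groups. H2-Aa, H2-Ab1, Cd74 and H2-Eb1 ranked 1, 2, 3 and 5 of 13343 genes, with excesses of 1.87, 1.73, 1.38 and 1.34. The chemokine gene Ccl8 was rank 4 (excess 1.37; 5.88 RPKM against 0.406 to 1.97 RPKM elsewhere), followed by Lcn2, an iron-binding acute phase protein (0.90), and the chemokine gene Ccl5 (0.73). Of the class II genes outside that group, H2-DMa ranked 9584, H2-DMb1 11878, H2-Oa 6903, H2-Ob 12543 and H2-DMb2 13255. H2-DMb2 had its lowest value of all 13 libraries in replicate 4 (0.310 RPKM). An excess above 1 was reached by 5 genes in this library and by 0 to 3 genes in each of the other 12.

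**Figure D3:**
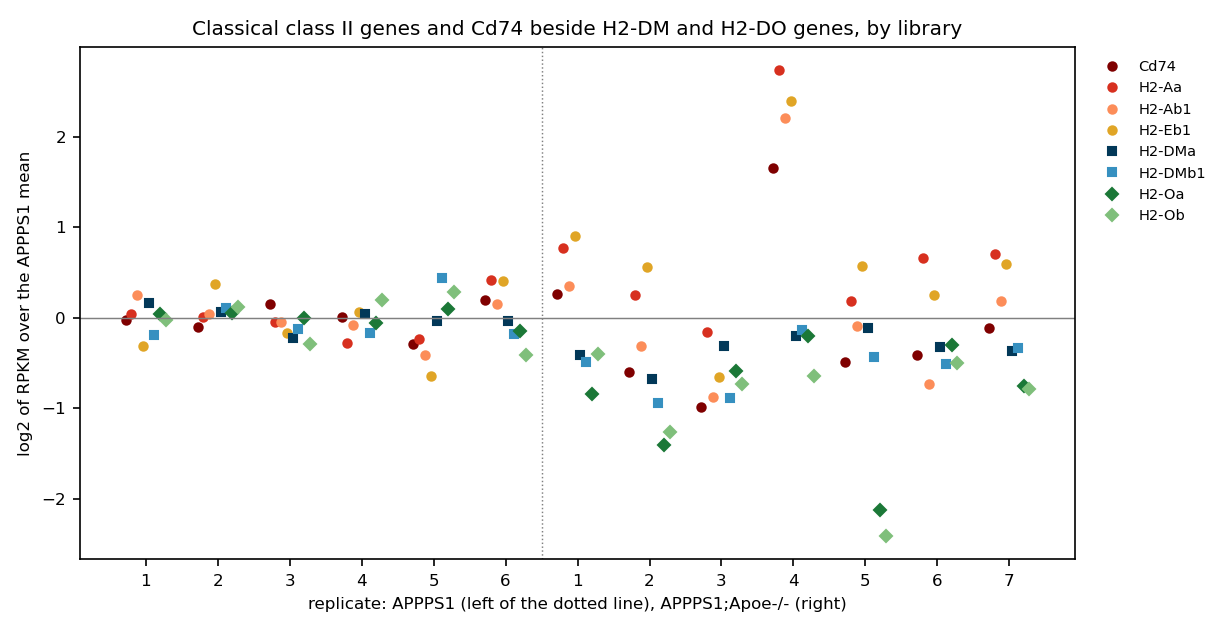
Level of 8 class II genes in each library as log2 of RPKM over the mean of the 6 APPPS1 libraries (no pseudocount, no error shown since each point is 1 library; replicates have no order). In APPPS1;Apoe-/- replicate 4 the circles of Cd74, H2-Aa, H2-Ab1 and H2-Eb1 lie far above 0 and the squares and diamonds of the H2-DM and H2-DO genes below it.

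Marker genes of other cell types were read beside these values, as sums of RPKM over each list. Perivascular and meningeal macrophage markers (9 genes) summed to 10.5 in replicate 4, rank 2 of 13. This lay within the APPPS1 range of 7.11 to 10.6 and at the top of the APPPS1;Apoe-/- range of 6.09 to 10.5. Mrc1, Stab1 and Ms4a7 were each highest in this library. For this and the counts below, 11.2% of all 13343 genes tested were highest in this library. F13a1, Pf4 and Cd209f were above the means of both groups there without being highest, and Cd163, Lyve1 and Cbr2 were below both means. Dendritic cell markers (8 genes) summed to 3.64, rank 3, in APPPS1 and APPPS1;Apoe-/- ranges of 2.90 to 4.92 and 2.63 to 3.78. B cell markers (5 genes) summed to 0.825, rank 12, in ranges of 1.04 to 1.23 and 0.675 to 1.45. None of these sums was the highest in replicate 4. Many of the markers were weak: a mean under 0.5 RPKM was found for 3 of the 9 macrophage, 5 of the 8 dendritic cell and 4 of the 5 B cell genes. T cell markers (8 genes) summed to 3.79 in replicate 4, rank 8. Of that sum 1.997 RPKM was Cd4, so the rank leans on this gene. Cd8a and Cd2 were highest in this library (Cd2 0.450 RPKM, against at most 0.261 RPKM in APPPS1 libraries). Of the T cell list, Cd4, a co-receptor that some myeloid cells also carry, was the only one of 2 tested genes called, higher without Apoe at 2.29 ± 1.87 RPKM (SD, n = 6) and 5.09 ± 1.88 RPKM (SD, n = 7; log2 change 1.098, limma adjusted p = 0.0324), and replicate 4 had the lowest value of its group, 1.997 RPKM. Monocyte and neutrophil markers (6 genes) ranked 3, with 1 gene, Ccr2, highest in this library. Fibroblast markers (8 genes) ranked 3, with 4 genes highest there (Col1a2, Dcn, Lum and Slc6a13). Col1a1 and Col3a1 were the highest of the APPPS1;Apoe-/- group there (0.528 and 0.162 RPKM), Igf2 and Ptgds were not. Endothelial markers (5 genes) ranked 2, with 1 gene, Pecam1, highest there, and choroid plexus markers (7 genes) ranked 3, with 0 highest. These last 3 ranks lean on 1 gene each. In replicate 4, Ptgds made up 1201 of the fibroblast sum of 1232 RPKM. Slc2a1 made up 50.5 of the endothelial 64.5 RPKM, and Ttr 24.0 of the choroid plexus 25.7 RPKM. The part of these cell types in the class II values of replicate 4 was not tested.

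Microglial markers were read in the same way, beside 4.74% of all genes tested called lower and 3.48% higher. Of 10 microglial genes 6 were called lower, 0 higher and 4 did not pass (P2ry12, Tmem119, Aif1 and Sall1), with summed levels of 331 to 393 RPKM in APPPS1 and 168 to 294 RPKM in APPPS1;Apoe-/- libraries, which did not overlap. Of 8 plaque-associated microglial genes 8 were lower, with sums of 370 to 450 RPKM and 75.6 to 216 RPKM. H2-DMa, H2-DMb1, H2-Oa and H2-Ob were called lower too, but were not compared with these lists library by library. Among APPPS1;Apoe-/- libraries, H2-DMa and H2-DMb1 were lowest in low-App replicate 2 (7.99 and 2.28 RPKM). In low-App replicate 5, H2-DMa was highest (11.8 RPKM), while H2-Oa and H2-Ob were lowest (0.613 and 0.246 RPKM). Cd74, H2-Aa, H2-Ab1 and H2-Eb1 were not called lower. Replicate 4 of this group ranked 8 of 13 in both sums. The part of microglial number or state in the lower H2-DM and H2-DO values was not tested.

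The spread within groups set the members apart from each other. The SD of log2(RPKM + 0.5) among the APPPS1;Apoe-/- libraries was 0.85 for Cd74, 0.88 for H2-Aa, 0.92 for H2-Ab1 and 0.76 for H2-Eb1, which ranked 57, 45, 39 and 74 among 13343 genes, against a median of 0.14 over all genes. Much of this was replicate 4: without it the SDs were 0.42, 0.33, 0.40 and 0.41, still ranks 285, 628, 330 and 303. Among the APPPS1 libraries they were 0.17, 0.22, 0.19 and 0.30, ranks 2735, 1595, 2102 and 637. For H2-DMa, the SDs were 0.13 in APPPS1 and 0.17 in APPPS1;Apoe-/- libraries, near the medians over all genes of 0.11 and 0.14. For H2-DMb1 they were 0.22 and 0.25, ranks 1457 and 1424. Wide spread without Apoe was not particular to Cd74 and the classical chains. In APPPS1;Apoe-/- libraries the SDs of H2-Oa, H2-Ob and H2-DMb2 were 0.47, 0.34 and 0.42 (ranks 210, 525 and 274). Without replicate 4 they were 0.46, 0.37 and 0.40 (ranks 225, 421 and 333), and among the APPPS1 libraries 0.07, 0.20 and 0.50.

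Members were also compared with each other within each library. The ratio of H2-Aa to Cd74 was 0.126, 0.130, 0.105, 0.0983, 0.125 and 0.140 in the APPPS1 libraries. It was 0.172, 0.218, 0.215, 0.255, 0.193, 0.255 and 0.212 in the APPPS1;Apoe-/- libraries. Every library without Apoe was above every control, replicate 4 and the 2 low-App libraries included. The ratio averaged 0.121 ± 0.0158 (SD, n = 6) and 0.217 ± 0.0304 (SD, n = 7), 1.80 times higher by geometric means (exact permutation p = 5.83e-04, the smallest that the 1716 splits allow; 0.00641 adjusted over the 11 ratios compared). It was 1.75 times higher without replicate 4 (exact permutation p = 0.00216) and 1.83 times without replicates 2 and 5 (exact permutation p = 0.00216). The ratios were chosen after the values had been seen.

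As background for this, the ratio to Cd74 was higher with no overlap for 0.015% of 13342 genes, H2-Aa and Lcn2. That share is small because Cd74 itself was so high in replicate 4; without this library it was 0.547%.

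H2-Eb1 shifted in the same way against Cd74. Its ratio averaged 0.0555 ± 0.0135 (SD, n = 6) and 0.0958 ± 0.0185 (SD, n = 7), 1.74 times higher (exact permutation p = 0.00175; 0.00641 adjusted over the 11 ratios), with ranges of 0.0435 to 0.0773 and 0.0705 to 0.124 that overlapped. H2-Ab1 to Cd74 averaged 0.107 ± 0.0139 and 0.124 ± 0.0225 and was not found to differ (exact permutation p = 0.147). H2-Aa also rose against its own partner chain: the ratio of H2-Aa to H2-Ab1 averaged 1.14 ± 0.156 (SD, n = 6) and 1.81 ± 0.535 (SD, n = 7), from 0.974 to 1.36 and from 1.38 to 2.98, with no overlap (exact permutation p = 0.00117; 0.00641 adjusted). The highest of these, 2.98, was replicate 6. Of 13342 genes, 0.015% had a ratio to H2-Ab1 that was higher with no overlap, and 0.12% without replicate 4, in which H2-Ab1 itself was highest. H2-Eb1 to H2-Ab1 was 1.51 times higher (exact permutation p = 0.00816; 0.0179 adjusted, and 0.0714 adjusted without replicates 2 and 5), while H2-Aa to H2-Eb1 averaged 2.26 ± 0.510 and 2.34 ± 0.563 (exact permutation p = 0.819).

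**Figure D4:**
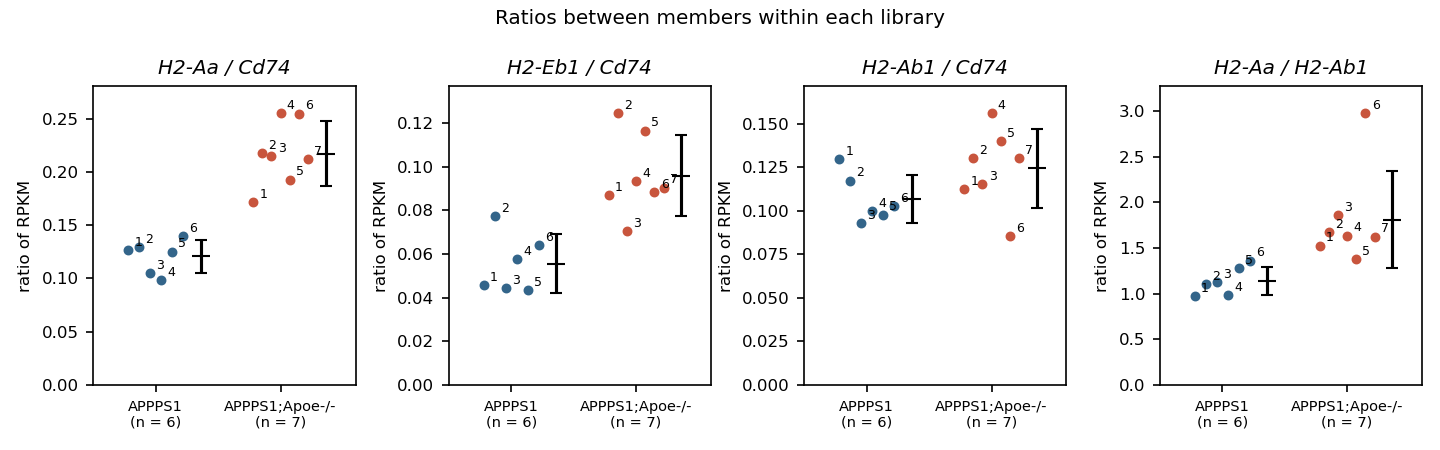
Ratio of RPKM between 2 members within each library (linear axes from 0; numbers are replicates, bars are mean and SD; 6 APPPS1 in blue, 7 APPPS1;Apoe-/- in red). H2-Aa to Cd74 and H2-Aa to H2-Ab1 separate the groups (highest APPPS1 value 0.140 and lowest APPPS1;Apoe-/- value 0.172 for the first), H2-Eb1 to Cd74 and H2-Ab1 to Cd74 overlap.

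Members were compared with Cd74 across libraries, 6 relations in all, on log2(RPKM + 0.5). H2-Ab1 followed Cd74 over all 13 libraries (Pearson r = 0.947, permutation p = 1.0e-04, adjusted 6.0e-04; Spearman rho = 0.824, permutation p = 7.9e-04, adjusted 0.00474). Without the 2 libraries farthest from the median of Cd74, APPPS1;Apoe-/- replicates 3 and 4, r was 0.709 (permutation p = 0.0139, adjusted 0.0833). For H2-Aa, r was 0.805 (permutation p = 0.0177, adjusted 0.0265) and rho 0.346 (permutation p = 0.247, adjusted 0.297). Without those libraries r over both groups pooled was 0.07, although within groups it was 0.627 in APPPS1 and 0.898 in APPPS1;Apoe-/- without replicate 4. H2-Eb1 gave r 0.787 (permutation p = 0.0119, adjusted 0.0262), rho 0.390 (permutation p = 0.190, adjusted 0.284) and a pooled r of 0.0036 without those libraries. Within groups its r was 0.569 in APPPS1 and 0.840 in APPPS1;Apoe-/- without replicate 4. Ciita gave r 0.685 (permutation p = 0.0131, adjusted 0.0262), rho 0.407 (permutation p = 0.169, adjusted 0.284) and 0.02 without them.

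Within the APPPS1;Apoe-/- group r with Cd74 was higher for H2-Aa, H2-Ab1 and H2-Eb1 than among the APPPS1 libraries. This difference in r between the groups was not tested. Cd74 also spread more without Apoe (SD of log2(RPKM + 0.5) 0.85, and 0.42 without replicate 4, against 0.17). The part of that spread in the higher r was not tested. For H2-Aa r was 0.977 (n = 7, exact permutation p = 3.97e-04, adjusted 0.00238) and rho 0.964 (exact permutation p = 0.00278, adjusted 0.0167), and without replicate 4 r was 0.898 (n = 6, exact permutation p = 0.00694, adjusted 0.0417) and rho 0.943 (exact permutation p = 0.0167, adjusted 0.10). H2-Ab1 gave r 0.973 (n = 7, exact permutation p = 0.00198, adjusted 0.00516), and 0.859 without replicate 4 (n = 6, exact permutation p = 0.0292, adjusted 0.0722). H2-Eb1 gave r 0.964 (n = 7, exact permutation p = 0.00258, adjusted 0.00516), and 0.840 without replicate 4 (n = 6, exact permutation p = 0.0361, adjusted 0.0722). Among the APPPS1 libraries r was 0.627 for H2-Aa, 0.628 for H2-Ab1 and 0.569 for H2-Eb1, none past adjustment (n = 6, exact permutation adjusted p = 0.363 for all 3). For H2-DMa no relation passed in either group (r -0.35 in APPPS1, exact permutation p = 0.519, and 0.29 in APPPS1;Apoe-/-, exact permutation p = 0.451). H2-DMb1 gave r 0.791 in APPPS1;Apoe-/- libraries (n = 7, exact permutation p = 0.0244, adjusted 0.0366), 0.676 without replicate 4 (n = 6, exact permutation p = 0.144) and -0.86 in APPPS1 libraries (n = 6, exact permutation p = 0.0222, adjusted 0.133). Ciita gave r 0.806 in APPPS1;Apoe-/- libraries (n = 7, exact permutation p = 0.0359, adjusted 0.0431), 0.314 without replicate 4 (n = 6, exact permutation p = 0.526) and -0.39 in APPPS1 libraries (n = 6, exact permutation p = 0.454).

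Among genes that are no members, those most like Cd74 over the 13 libraries were Sh3pxd2a (r 0.882), Zfr2 (0.871), Ski (0.871), Ube2d2a (0.863), Ccdc71l (0.861), Ddn (0.857), Ccl5 (0.853), Slc45a4 (0.850), Tgfbr3 (0.848) and Caprin1 (0.846), out of 13342 genes. These are descriptions of genes picked for their r, and all 10 were highest in replicate 4. Without replicates 3 and 4, r was 0.834 for Ccdc71l and 0.743 for Ccl5, but 0.20 for Tgfbr3 and -0.02 for Caprin1. Within the pathway lists the closest was Rfxap, a subunit of the RFX complex that binds the X box, with r 0.649. Then came Rfx5 (0.577), Ifngr1 (0.533), Jak2 (0.405) and H2-Oa (0.338). These 5 ranked 274, 576, 838, 1933 and 2702 of the 13342 genes by r. Without replicates 3 and 4, r was 0.584 for Rfxap, 0.21 for Rfx5, 0.31 for Ifngr1, 0.09 for Jak2 and 0.52 for H2-Oa.

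The factors that bind class II promoters were not found to change. Of 7 tested genes for RFX, CREB and NF-Y subunits 0 were called, with a median change of -0.04. Over all genes tested, 4.74% were called lower and 3.48% higher, so 0 of 7 is close to that share. Nfyc, a subunit of NF-Y, had the smallest p of these (log2 change 0.12, limma adjusted p = 0.191). Rfx5 and Rfxap, RFX subunits, were highest in replicate 4 (1.35 and 2.56 RPKM, against at most 1.21 and 2.25 RPKM elsewhere). Over all genes tested, 11.2% were highest in this library. Rfxank, also an RFX subunit, and Nfyc were the lowest of the APPPS1;Apoe-/- group there (4.67 and 13.1 RPKM). Creb1, Nfya and Nfyb were neither highest nor lowest of the group there.

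Among genes of peptide supply and turnover, 4 cathepsins fell. Of 9 genes tested, 4 were called lower, 0 higher and 5 did not pass, with a median change of -0.18. The share called lower over all genes tested was 4.74%. Ctsd, the lysosomal protease cathepsin D, averaged 858 ± 54.6 RPKM (SD, n = 6) and 483 ± 101 RPKM (SD, n = 7), a log2 change of -0.86 (limma adjusted p = 5.58e-04). Ctsl, cathepsin L, averaged 43.4 ± 1.63 and 37.1 ± 1.93 RPKM (log2 change -0.22, limma adjusted p = 0.00684). Ctss, cathepsin S, which makes the late cuts in the invariant chain, averaged 250.1 ± 21.2 and 159 ± 44.7 RPKM (log2 change -0.71, limma adjusted p = 0.0176). Ctsb, cathepsin B, was the remaining call (log2 change -0.18, limma adjusted p = 0.0412). Ifi30, the thiol reductase that unfolds antigens (log2 change -0.26, limma adjusted p = 0.159), Sppl2a, which clears the last Cd74 fragment (0.0049, limma adjusted p = 0.961), and March1, a ubiquitin ligase that turns over surface class II (-0.05, limma adjusted p = 0.663), did not pass.

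In interferon-gamma signalling, which induces Ciita, 2 of 6 tested genes were called lower and 0 higher, with a median change of -0.07. For this list and the next, the shares over all genes tested were 4.74% lower and 3.48% higher. Ifngr2, a receptor chain, averaged 15.4 ± 1.40 RPKM (SD, n = 6) and 12.4 ± 0.885 RPKM (SD, n = 7), a log2 change of -0.30 (limma adjusted p = 0.00805). Ifng itself was listed at 0 in 8 of 13 libraries, replicate 4 among them. Of 4 tested genes for ligands and partners of Cd74 and for co-stimulation, 1 was called lower and 0 higher: Cd44, the co-receptor of Cd74, averaged 1.17 ± 0.193 and 0.643 ± 0.185 RPKM (log2 change -0.56, limma adjusted p = 0.00564). Mif, the cytokine that binds Cd74 (-0.15, limma adjusted p = 0.185), and Cd86, a co-stimulatory ligand (-0.24, limma adjusted p = 0.225), did not pass.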

How the data were processed

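The authors deposited RPKM values per gene in 1 table for the 13 libraries, with alignments per library. Per the labels' protocols, RNA was extracted from flash-frozen cortex with Trizol, and Clontech SMARTer is named for the library. Partek and mm10 are named per the submitters' processing notes; the aligner, counting rule, strand use and annotation were not given in the sources used here. Such values state no counting error, so depth is known only from the alignments.

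The 13343 of 20971 genes whose mean RPKM was at least 0.5 entered the fit. It was made on log2(RPKM + 0.5) by lmFit and trended eBayes of limma 3.58.1 (R 4.3.3), with genotype as its single term. P-values were two-sided, adjusted by Benjamini-Hochberg over all genes tested and called under 0.05. Single values were tested by exact permutation over all 1716 splits (924 or 462 with libraries left out), and relations by 100000 resamples, or exactly for 7 libraries or fewer. The limma step was tested on simulated data. The members and lists were chosen with earlier results of these data known. Named are all members, up to 3 called genes per pathway list with the smallest adjusted p, the 10 genes with the highest r with Cd74 and the 5 of the pathway lists; Ctsb, Nfyc, the uncalled pathway genes with values and the genes high in replicate 4 were chosen after their values were seen. Some genes of the lists are not reported here. Alternatives covered pseudocounts, filters, scaling, variance model, weights, covariates and libraries left out. Positions are those of GENCODE vM21 on mm10; promoters are from RefSeq on GRCm38.p6. Other steps used scipy 1.17.1, numpy 2.4.6, matplotlib 3.10.9 and pandas 2.3.3 in Python 3.11.15.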

Additional observations from a re-analysis of the deposited data

Results flagged for a closer look

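Within the APPPS1;Apoe-/- group, replicate 4 was far from the other 6 libraries in 4 members: the gap to its nearest neighbour made up 0.736 of the group's range for Cd74, 0.859 for H2-Aa, 0.822 for H2-Ab1 and 0.733 for H2-Eb1, each past the 95% limit of Dixon's test. These 4 genes vary together, so they are not independent signals. Chance flags about 1 in 20 groups, and 21 groups of values were looked at. H2-Eb2 in APPPS1 replicate 5 also met the limit (gap over range 1), only because every other library is listed at 0 for it.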

How the results depend on the processing

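The count of members called, 2 with all libraries, was 1 (H2-DMa) with no filter on low values and without both low-App libraries, and 0 with log2 alignments as a covariate. With 1 library left out it ranged from 1 to 2. The change of Cd74 ran from -0.38 to 0.09 over its 26 alternatives and passed in none (limma adjusted p from 0.133 to 0.999); that of H2-Aa ran from 0.34 to 0.88 and passed in none (limma adjusted p from 0.0914 to 0.310). H2-DMa ran from -0.46 to -0.27 over 26 alternatives and kept its call in 25; H2-DMb1 ran from -0.65 to -0.37 and kept it in 19. H2-Oa and H2-Ob lost their calls with no filter (limma adjusted p = 0.0609 and 0.0518), and also with the alignments covariate, with or without replicate 4. Leaving out replicate 4 raised the calls over all genes to 854 lower and 742 higher, and the alignments covariate lowered them to 132 and 70. The cause was not tested. Fits without replicates 2, 4 and 5 together, the covariate fit without replicate 4 and the ratios were added after seeing the data. No paired analysis was possible because the labels give no replicate numbers that the groups share. Weak members, Ciita above all, are limited by depth, which was lower in the APPPS1;Apoe-/- group.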
